A study of Danio rerio with 6 samples.

Results

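A gene can give rise to several transcripts. The 64 genes described here had a transcript that took up clearly different parts of the gene's RNA in GFP-positive and in GFP-negative cells of zebrafish with the transgene *Tg(krt4:GFP)* at the 4-somite stage. For each library, a transcript's share was computed as its TPM (a level per length of transcript, brought to the same total in every library) divided by the summed TPM of all transcripts of the same gene identifier. The genes were selected on these shares themselves: a gene was kept when the mean share of 1 of its transcripts differed by at least 30 percentage points between the populations, with no overlap of the 3 and 3 libraries. Only genes with at least 2 transcripts and a mean summed TPM of at least 10 in each population were considered, which left 5093 of 26190 genes. Of these, 64 passed, or 1.26%. Because the shares chose the genes, the share differences below are given as a description, with no test.

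In this line GFP is placed under regulatory sequence of *krt4*, a keratin gene, and marks the periderm, the flat outermost epithelium of the embryo. Cells of dissociated embryos were sorted by fluorescence, and both populations carry the transgene. The GFP-positive and the GFP-negative population were each profiled in 3 libraries, from 3 independent crosses of the line. By the aim of the sort, the GFP-negative population is every other cell of the embryo, and so a mixture of neural, mesodermal, epidermal and other cells. Both populations held markers of several cell types, as given below.

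Transcripts of a gene can differ by the promoter they start from, by the exons that splicing joins, or by the site of polyadenylation. Such choices can alter the protein, or only the untranslated ends of the RNA. Epithelial cells are known in mammals for a splicing programme of their own, in which the ESRP proteins and other RNA-binding factors choose exons in genes of cell adhesion, polarity and the cytoskeleton. Which exons or ends distinguished the transcripts below was not examined here, so each transcript is given by its length and, for some genes, its identifier.

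The libraries held 40584467 to 49679602 estimated counts, and 56.7 to 58.4% of the values of the 51286 transcripts lay more than 0.001 from a whole number, since kallisto, the program that made them, divides a read that matches several transcripts among them. Nearly identical transcripts are therefore uncertain, and a transcript listed at 0 can be an outcome of that division. Periderm markers fitted the sort: 9 of 9 were higher in every GFP-positive library, with summed levels of 4789 to 5004 TPM in GFP-positive cells, against 766 to 860 TPM in GFP-negative cells. Among them is *krt4*, whose regulatory sequence drives the GFP used for the sort. It made up much of both sums, with 2315 to 2591 TPM in GFP-positive cells, against 545 to 636 TPM in GFP-negative cells. The 4 neural markers summed to 433 to 439 TPM in GFP-positive cells, against 826 to 841 TPM in GFP-negative cells. Summed levels of the basal epidermis markers were 83.6 to 97.3 TPM in GFP-positive cells, against 60.6 to 67.2 TPM in GFP-negative cells (2 of 2 higher in every GFP-positive library), and those of the blood and endothelium markers 160 TPM, against 141 to 149 TPM (1 of 3 higher in every library). The mesoderm markers summed to 90.7 to 98.6 TPM in GFP-positive cells, against 110 to 113 TPM in GFP-negative cells, with 2 of 4 lower and *myod1* higher in every GFP-positive library, and the endoderm marker *sox17* overlapped at 0.756 to 0.968 TPM in GFP-positive cells, against 0.8 to 1.16 TPM in GFP-negative cells. The part of other cells in the shares was not tested. In bulk populations, fewer cells of a type and less RNA per cell cannot be told apart. The mean fragment length implied by the effective lengths in the files was 364 to 368 bases in GFP-positive libraries and 343 to 360 bases in GFP-negative libraries. It moved with the populations, and its part in the shares was not tested. GFP-positive replicate 3 stood somewhat apart. For 38 of the 64 genes, its share of the lead transcript, the transcript with the largest difference, lay nearest to the GFP-negative mean, against 13 genes for replicate 1 and 13 for replicate 2. Without that library 103 genes met the rule, 60 of the 64 among them. Of the GFP-negative libraries, replicate 1 lay nearest to the GFP-positive mean for 31 genes, against 10 for replicate 2 and 23 for replicate 3. Without GFP-negative replicate 1, 86 genes met the rule, 61 of the 64 among them.

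Large differences in transcript share were uncommon. Over the 5093 genes the median of the largest share difference was 4.41 points, 1100 genes (21.6%) reached 10 points with no overlap, and 276 (5.42%) reached 20 points. Another 4 genes passed 30 points but had overlapping libraries: *txlnbb*, *gemin4*, *mtrf1* and *ptprna*. Just inside the limit stood BX957251.1 with a difference of -30.27 points and *trmt10a* with -30.12 points. Just outside stood the actin-binding gene *dbn1* with 29.71 points and the BMP receptor gene *acvr1l* with -29.71 points.

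**Figure D1:**
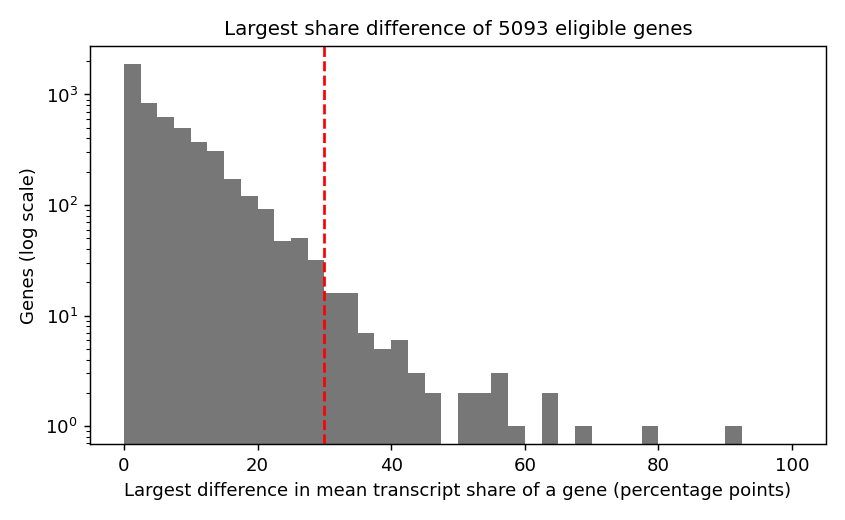
Histogram of the largest difference in mean transcript share between GFP-positive and GFP-negative libraries (x axis, percentage points) for 5093 genes (y axis, number of genes, log scale). The dashed line marks 30 points, beyond which lie the 64 genes described here and 4 genes whose libraries overlapped.

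Among the 64, the median difference of the lead transcript was 35.2 points and the largest 91.6 points. At least 40 points separated the populations in 21 genes and at least 50 points in 12 genes, whereas 30 genes were under 35 points. The lead transcript held the larger share in GFP-positive cells in 33 genes and the smaller in 31. In 36 genes the most abundant transcript was a different one in the 2 populations, and in 28 genes it was the same transcript at a different share. Over all 5093 genes the most abundant transcript differed in 394 (7.74%). Of the 64, *gnaia* and *wdr45b* alone had a transcript with at least 80% in 1 population and at most 20% in the other. The gap between the nearest libraries of the populations had a median of 25.9 points and was under 10 points in 4 genes. The SD of the lead share over 3 libraries had a median of 5.13 points in GFP-positive cells, against 4.39 points in GFP-negative cells, and the largest was 37.7 points, for si:dkeyp-79b7.3 in GFP-positive cells.

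**Figure D2:**
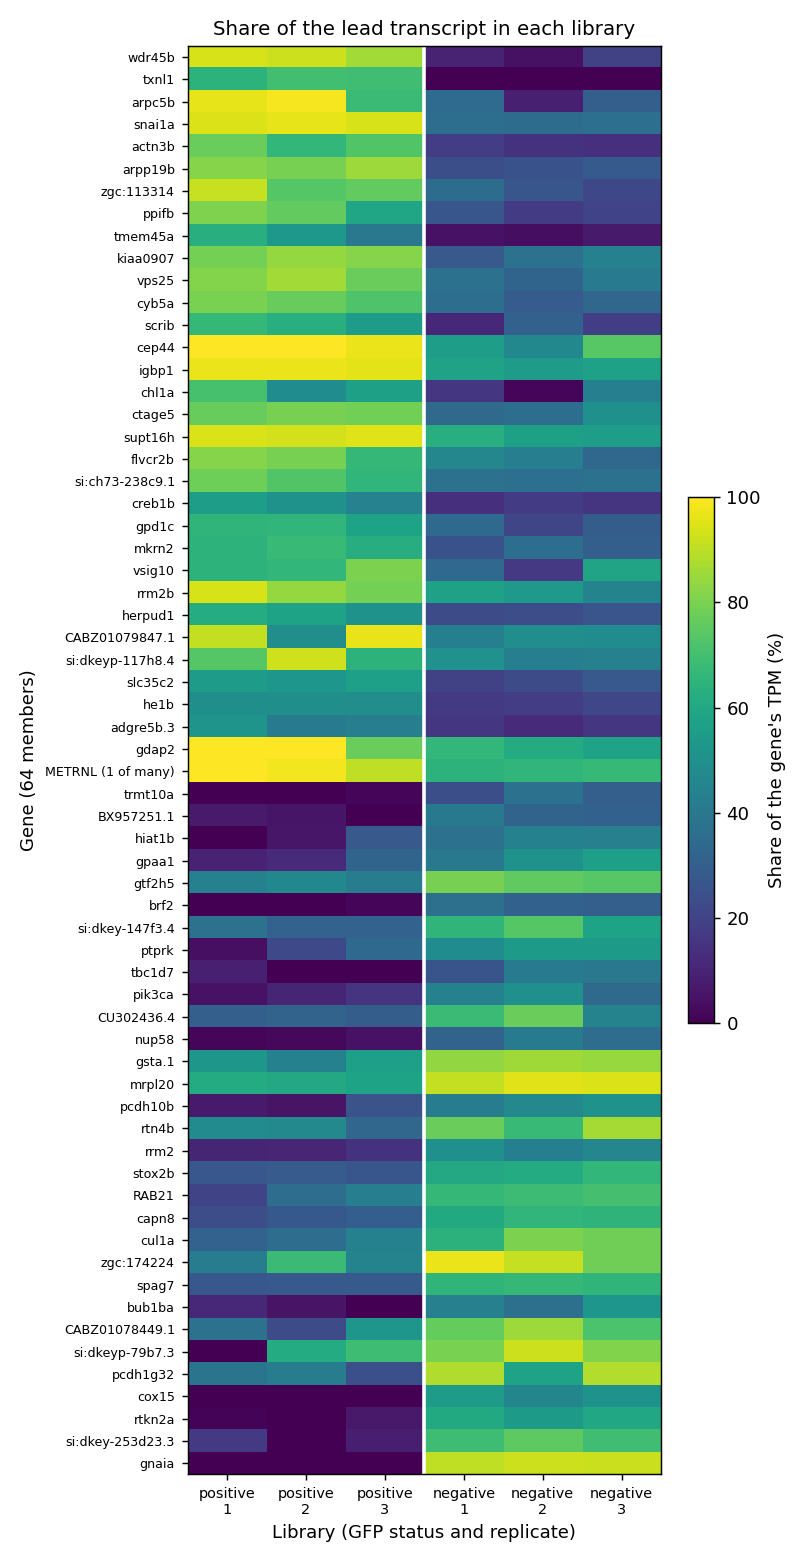
Share of the gene's TPM held by the lead transcript (colour, 0 to 100%) in each of 6 libraries (columns, the 3 GFP-positive libraries left of the 3 GFP-negative ones) for the 64 genes (rows, ordered by the difference). In the upper 33 rows the GFP-positive libraries are the higher ones, and in the lower 31 rows the lower ones.

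As a background for how common differences in transcript usage were, estimated counts of the transcripts were fitted with edgeR (diffSpliceDGE, with Simes p-values per gene). At an adjusted p below 0.05 it called 513 of 4316 genes tested, or 11.9%, and 42 of the 64, all of which passed its filter on low counts. The count was 836 without GFP-positive replicate 3 and 339 without GFP-negative replicate 3, and DESeq2 called 1501 genes. On simulated data edgeR and DESeq2 called more unchanged genes than the threshold allows, so their counts can be too high. A fit with limma of the log2 ratio of each transcript to the rest of its gene, chosen after seeing the data, called 678 genes, or 15.7%, and 50 of the 64. Nothing is read from these counts about the 64, which were chosen on the same contrast.

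The genes below are ordered by known role for reading only, with no list or test behind the order. *gnaia* (ENSDARG00000044760) encodes an inhibitory G protein alpha subunit, which relays signals from receptors in the cell membrane. Its transcript of 3643 bases (ENSDART00000046298) was listed at 0% of the gene's TPM in all GFP-positive libraries, against 90.5, 92.2 and 92.0% in GFP-negative libraries. The other transcript, of 3744 bases (ENSDART00000138985), held all of the gene's TPM in GFP-positive cells, against 8.42% ± 0.933 in GFP-negative cells (SD, n = 3). As listed, the shorter transcript had a difference of -91.6 points. Its 0% in GFP-positive libraries can be an outcome of the division of reads between the transcripts, which was not tested. In TPM, the longer transcript averaged 58.2 ± 2.99 in GFP-positive cells, against 9.76 ± 0.616 in GFP-negative cells (SD, n = 3 each).

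*snai1a* (ENSDARG00000056995) encodes a Snail repressor, a transcription factor known for turning down E-cadherin during epithelial-mesenchymal transitions. Its transcript of 1905 bases (ENSDART00000079578) held 94.8, 96.2 and 93.8% in GFP-positive libraries, against 36.3, 35.3 and 36.4% in GFP-negative libraries. Libraries of a population lay within a few points of each other, and the difference was 58.9 points. A transcript of 1942 bases held 4.41% ± 0.686 in GFP-positive cells, against 49.7% ± 9.74 in GFP-negative cells, and another one, of 986 bases, held 0.634% ± 1.1 in GFP-positive cells, against 14.3% ± 9.37 in GFP-negative cells (SD, n = 3 each). As listed, GFP-negative cells thus divided the gene's RNA among 3 transcripts where GFP-positive cells had nearly all of it in 1. The transcript of 1942 bases varied, with 54.7, 56 and 38.5% in GFP-negative libraries. The division of reads between these transcripts was not tested.

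*arpc5b* (ENSDARG00000019062) encodes a subunit of the Arp2/3 complex, which starts branched actin filaments. Its transcript of 1644 bases held 96.4, 98.8 and 68.0% in GFP-positive libraries, against 34.8, 8.63 and 30.1% in GFP-negative libraries. The difference of 63.2 points came with wide spreads, and GFP-positive replicate 3 was the lowest of its population. A transcript of 1630 bases, nearly as long, held 1.38, 0.00523 and 31.3% in GFP-positive libraries, against 65.2, 91.4 and 61.8% in GFP-negative libraries. The division of reads between them is uncertain and was not tested. *actn3b* (ENSDARG00000001431), an alpha-actinin known from the Z discs of muscle, had its transcript of 4785 bases at 77.3, 66.1 and 72.9% in GFP-positive libraries, against 18.3, 14.5 and 13.8% in GFP-negative libraries. The rest was a transcript of 432 bases. TPM divides by length, and in shares of estimated counts the long transcript took 98.8% in GFP-positive cells, against 85.0% in GFP-negative cells, a difference of only 13.8 points. For *rtkn2a* (ENSDARG00000053558), the transcript of 2936 bases held 0.84, 0 and 6.77% in GFP-positive libraries, against 60.8, 54.6 and 59.7% in GFP-negative libraries, and a transcript of 2957 bases held the rest. Here too the values at or near 0 can be an outcome of the division of reads, which was not tested.

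**Figure D3:**
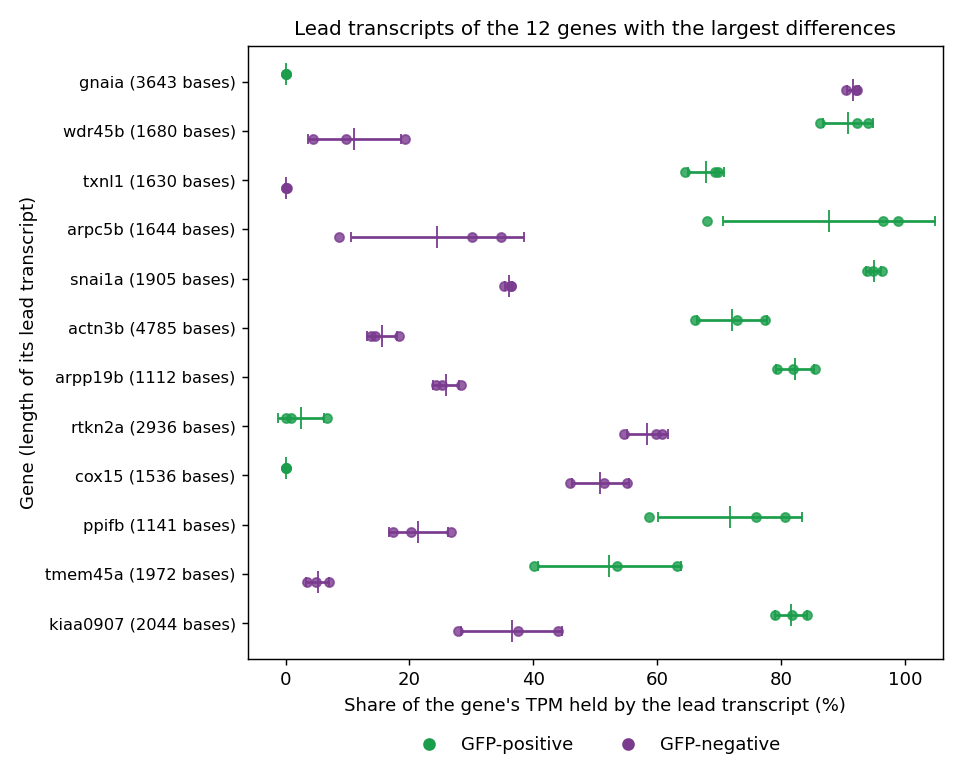
Share of the gene's TPM held by the lead transcript (x axis, %) for the 12 genes with gene symbols and the largest differences, with the length of that transcript beside the name. Points are libraries, ticks and bars the mean and SD of 3 libraries, GFP-positive above GFP-negative; the points of the populations do not overlap for any of the 12, and *arpc5b* and *ppifb* are among the widest spreads.

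*txnl1* (ENSDARG00000011921), a thioredoxin-like protein that associates with the proteasome in mammals, was among the most abundant of the 64 genes. Its transcript of 1630 bases (ENSDART00000006419) held 64.5, 69.8 and 69.3% in GFP-positive libraries, against 0.17, 0 and 0% in GFP-negative libraries. It was thus listed near 0 in GFP-negative cells, which can be an outcome of the division of reads and was not tested. The transcript of 1663 bases (ENSDART00000133976) held 32.1% ± 2.94 in GFP-positive cells, against 99.9% ± 0.098 in GFP-negative cells (SD, n = 3 each). *cox15* (ENSDARG00000075933), of the synthesis of the heme A of cytochrome c oxidase, had its transcript of 1536 bases listed at 0 in all GFP-positive libraries, against 55.1, 45.9 and 51.4% in GFP-negative libraries. GFP-negative cells held its transcripts of 1536 and 1583 bases in nearly equal parts. The listed 0 in GFP-positive libraries can again be an outcome of the division of reads, which was not tested. The mitochondrial ribosome gene *mrpl20* (ENSDARG00000090462) kept the same most abundant transcript, of 650 bases, at 61.7, 60.2 and 58.2% in GFP-positive libraries, against 90.8, 95.6 and 94.7% in GFP-negative libraries. A transcript of 636 bases, nearly as long, held the rest, and the division of reads between them was not tested.

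*ppifb* (ENSDARG00000052842) encodes a mitochondrial cyclophilin, known as a regulator of the permeability transition pore. Its transcript of 1141 bases held 80.6, 75.9 and 58.6% in GFP-positive libraries, against 26.7, 17.4 and 20.2% in GFP-negative libraries. The transcript with the opposite difference, of 1142 bases, is nearly as long, and held 0, 4.13 and 9.39% in GFP-positive libraries, against 21.5, 60.8 and 67.0% in GFP-negative libraries. Another transcript, of 1135 bases, varied widely within the populations, with 51.8% in GFP-negative replicate 1 and 12.9% in GFP-negative replicate 3. When transcripts within 5 bases of each other in length were merged, an alternative chosen after seeing the data, *ppifb* no longer met the rule. Merging joins the opposite differences of such a pair, so this loss follows largely from the setting. *cyb5a*, a cytochrome b5, held 76.4% ± 3.64 of its TPM in a transcript of 1312 bases in GFP-positive cells, against 32.7% ± 3.43 in GFP-negative cells (SD, n = 3 each).

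*wdr45b* (ENSDARG00000021557) is a WD-repeat protein of the WIPI family, which acts in autophagosome formation. Its transcript of 1680 bases (ENSDART00000033237) held 93.9, 92.2 and 86.2% in GFP-positive libraries, against 9.75, 4.39 and 19.2% in GFP-negative libraries. A transcript of 1730 bases mirrored it, with 8.7% ± 3.74 in GFP-positive cells, against 88.4% ± 6.79 in GFP-negative cells (SD, n = 3 each). The summed TPM of the gene was nearly the same, at 24.0 ± 1.39 in GFP-positive cells, against 25.3 ± 0.547 in GFP-negative cells (SD, n = 3 each).

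*vps25*, a subunit of the ESCRT-II complex of endosomal sorting, held 81.5, 86.2 and 77.0% of its TPM in a transcript of 2094 bases in GFP-positive libraries, against 37.2, 32.3 and 40.7% in GFP-negative libraries. *herpud1* (ENSDARG00000024314), a gene of the unfolded protein response that takes part in degradation at the endoplasmic reticulum, had a transcript of 2209 bases at 57.1% ± 5.46 in GFP-positive cells, against 24.3% ± 1.71 in GFP-negative cells (SD, n = 3 each), with no overlap. Its transcript of 1243 bases held 34.9% ± 3.82 in GFP-positive cells, against 49.8% ± 1.62 in GFP-negative cells, where it was the most abundant (SD, n = 3 each). *RAB21*, an endosomal GTPase, held 20.5, 35.7 and 42.8% in its transcript of 1247 bases in GFP-positive libraries, against 66.6, 68.4 and 70.5% in GFP-negative libraries.

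*rrm2* (ENSDARG00000020711), the small subunit of ribonucleotide reductase that supplies deoxynucleotides for DNA replication, had a summed TPM of 49.4 ± 7.33 in GFP-positive cells, against 871 ± 47.4 in GFP-negative cells (SD, n = 3 each). Its transcript of 2037 bases (ENSDART00000027851) held 10.4, 10.6 and 14.5% in GFP-positive libraries, against 50, 43.3 and 46.1% in GFP-negative libraries. By TPM the most abundant transcript, of 785 bases, was the same in both, with 54.4% ± 1.72 in GFP-positive cells, against 51.5% ± 3.43 in GFP-negative cells. In shares of estimated counts, which are not divided by length, the transcript of 2037 bases took 26.5% in GFP-positive cells, against 75.5% in GFP-negative cells. By counts it was thus the most abundant in GFP-negative cells. A transcript of 906 bases held 20.3% ± 4.36 in GFP-positive cells, against 0.391% ± 0.167 in GFP-negative cells (SD, n = 3 each). *rrm2b*, which encodes the other small subunit, was also among the 64. Its transcript of 1602 bases held 94.0, 84.1 and 79.2% in GFP-positive libraries, against 57.1, 53.6 and 45.3% in GFP-negative libraries.

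*arpp19b* (ENSDARG00000039880), whose mammalian counterpart inhibits the phosphatase PP2A at mitotic entry, had a transcript of 1112 bases at 81.8, 79.3 and 85.4% in GFP-positive libraries, against 24.2, 25.3 and 28.3% in GFP-negative libraries. In GFP-negative cells it shared the gene's RNA with transcripts of 1131 bases (43.3% ± 2.19) and 1057 bases (28.3% ± 4.96). *cul1a* (ENSDARG00000019239), the cullin scaffold of SCF ubiquitin ligases, had a transcript of 3385 bases at 31.5, 35.6 and 44.1% in GFP-positive libraries, against 64.2, 80.1 and 78.5% in GFP-negative libraries. Its most abundant transcript in GFP-positive cells was that of 3284 bases, with 44.3% ± 6.98, against 16.5% ± 7.84 in GFP-negative cells (SD, n = 3 each). For *bub1ba*, of the spindle checkpoint, the transcript of 2394 bases averaged 5.64% ± 5.81 in GFP-positive cells, against 44.5% ± 7.84 in GFP-negative cells. For *cep44*, a centrosome gene, a transcript of 2165 bases held 100, 100 and 97.0% in GFP-positive libraries, against 55.8, 46.5 and 74.0% in GFP-negative libraries.

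*supt16h* (ENSDARG00000079949) encodes a subunit of the histone chaperone FACT. Its transcript of 3917 bases (ENSDART00000172830) was the most abundant in both populations and held 94.2, 93.2 and 95.2% in GFP-positive libraries, against 62.8, 56.9 and 56.1% in GFP-negative libraries. Both transcripts of the pair that differed most had a lower TPM in GFP-positive cells: the transcript of 3917 bases averaged 111 ± 12.9 TPM in GFP-positive cells, against 139 ± 4.45 TPM in GFP-negative cells, and that of 3102 bases was near 0 TPM in GFP-positive cells, against 46.3 ± 13.0 TPM in GFP-negative cells (SD, n = 3 each). The values near 0 can be an outcome of the division of reads, which was not tested. *kiaa0907* (ENSDARG00000035023), an RNA-binding protein with KH domains, had a transcript of 2044 bases at 79.0, 84.1 and 81.7% in GFP-positive libraries, against 27.9, 37.5 and 44.0% in GFP-negative libraries. Its counterpart was 2046 bases long, and with the pair merged, which joins their opposite differences, the gene no longer met the rule.

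*nup58* (ENSDARG00000033965), of the nuclear pore, had a transcript of 2090 bases at 1.58, 2.07 and 4.95% in GFP-positive libraries, against 32.0, 41.0 and 35.9% in GFP-negative libraries, beside a transcript of 2587 bases that led in both. *trmt10a* (ENSDARG00000036678), a tRNA methyltransferase and 1 of the 2 genes just inside the limit, had a transcript of 691 bases at 0, 0 and 1.55% in GFP-positive libraries, against 24.1, 37.4 and 30.4% in GFP-negative libraries. In shares of estimated counts it took 0.207% in GFP-positive cells, against 15.3% in GFP-negative cells, a difference of -15.1 points that does not meet the rule. Nor was the rule met without GFP-positive replicate 1 or replicate 2 (-29.9 points each), or without GFP-negative replicate 2 (-26.8 points). *creb1b*, a cyclic AMP response factor, had a transcript of 1040 bases at 55.6, 51.2 and 44.4% in GFP-positive libraries, against 13.9, 17.2 and 15.4% in GFP-negative libraries. In shares of estimated counts the differences of *creb1b* (23.5 points) and of *nup58* (-29.7 points) do not meet the rule either. *brf2*, a factor of RNA polymerase III, had a transcript of 1549 bases at 0, 0 and 1.22% in GFP-positive libraries, against 37.1, 30.9 and 30.1% in GFP-negative libraries.

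*tmem45a* (ENSDARG00000070743), whose mammalian counterpart is expressed with keratinization of the epidermis, had a transcript of 1972 bases at 63.2, 53.5 and 40.1% in GFP-positive libraries, against 4.86, 3.53 and 7.09% in GFP-negative libraries, where a transcript of 1908 bases held nearly all of its RNA. *he1b* (ENSDARG00000019122) encodes a hatching enzyme, a protease of the hatching gland that dissolves the egg envelope. Hatching enzymes are a family of similar genes, among which reads can be divided, so its values are uncertain. Its transcript of 924 bases held 49.7, 49.7 and 49.6% in GFP-positive libraries, against 17.0, 18.0 and 21.4% in GFP-negative libraries. Another transcript, of 980 bases, held 50.2% ± 0.0452 in GFP-positive cells, against 78.3% ± 4.15 in GFP-negative cells. The pair was nearly equal in TPM in each GFP-positive library (650 and 656, 627 and 634, 604 and 612). The division of reads between these transcripts is thus uncertain too, and the small SDs are no measure of it. Both had a higher TPM in GFP-positive cells, with 627 ± 22.9 TPM for the shorter in GFP-positive cells, against 20.7 ± 2.96 TPM in GFP-negative cells (SD, n = 3 each).

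**Figure D4:**
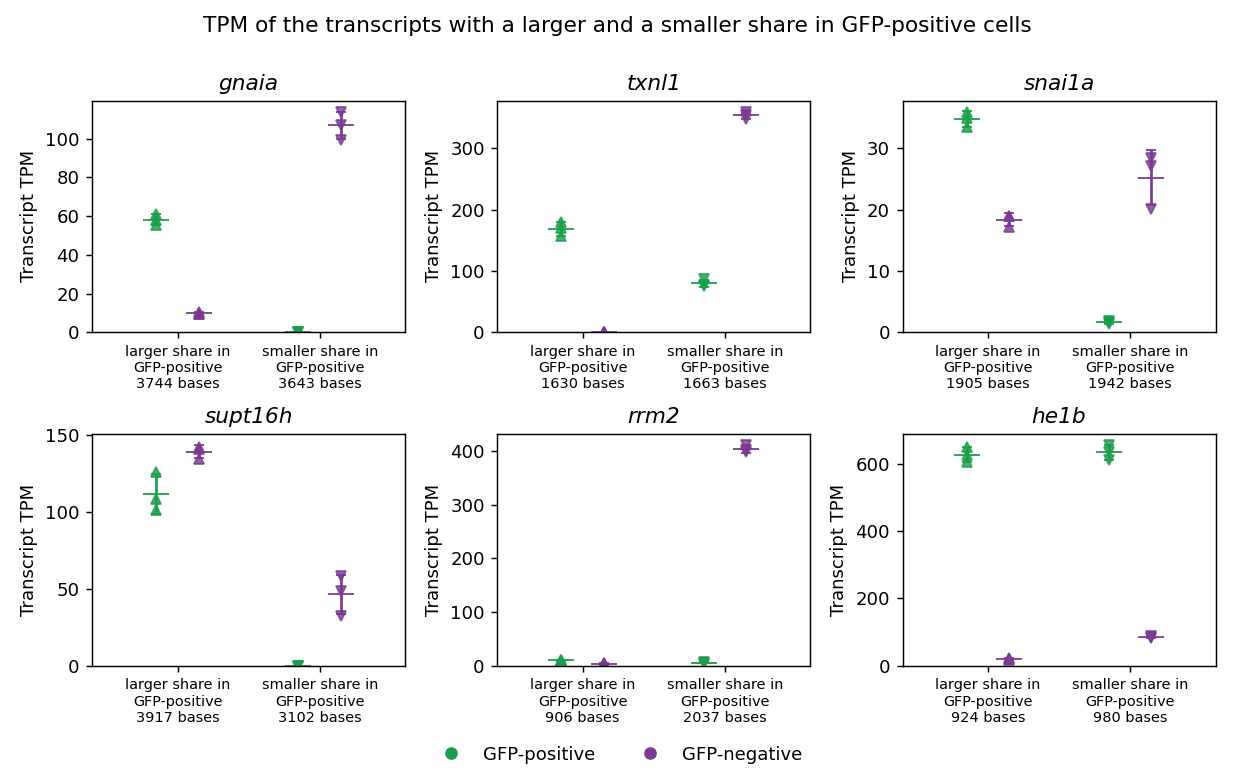
TPM (y axis, starting at 0) of the 2 transcripts whose shares differed most in opposite directions, for 6 genes; symbols are libraries, ticks and bars the mean and SD of 3 libraries, GFP-positive left of GFP-negative. In *gnaia*, *txnl1*, *snai1a* and *rrm2* one transcript is higher and the other lower in GFP-positive cells, in *supt16h* both are lower and in *he1b* both are higher.

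In TPM, the transcript with the larger share in GFP-positive cells was the higher one there in every library, and its counterpart was lower in every library, in 48 of the 64 genes. The same held for 566 (11.1%) of the 5093 genes, and nothing is read from the 48, since the 64 were chosen on shares of these TPM values. In 7 of the 64 genes only the transcript with the larger share was separated in this way, and in 4 only its counterpart. Both were lower in GFP-positive cells in *supt16h* and *stox2b*, and both were higher in si:dkey-147f3.4 and *he1b*. In si:dkeyp-79b7.3 neither was separated in every library.

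*scrib* (ENSDARG00000000861), which builds the basolateral domain of epithelial cells, was the only gene of the 64 on a list of genes with exons regulated in mammalian epithelia. Its lead transcript is 213 bases long and held 66.7, 63.2 and 55.0% of the gene's TPM in GFP-positive libraries, against 11.1, 31.0 and 18.6% in GFP-negative libraries. In shares of estimated counts, which are not divided by length, it took 1.95% in GFP-positive cells, against 0.297% in GFP-negative cells. Its transcript of 5175 bases held 5.6% ± 1.29 of TPM in GFP-positive cells, against 31.4% ± 3.46 in GFP-negative cells (SD, n = 3 each).

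Of the 24 genes on that list that could be considered, 10 (41.7%) reached 10 points with no overlap, against 21.6% of all 5093 genes, and 1 reached 30, and the median of their largest difference was 7.61 points, against 4.41 points over all 5093 genes. Of 38 genes of the actin cytoskeleton, 14 (36.8%) reached 10 points, with a median of 7.27 points. Of 64 splicing regulators, 16 (25%) reached 10 points, with a median of 6.53 points. Membrane traffic had 8 of 33 (24.2%) and a median of 5.93 points, and junctions and adhesion 3 of 19 (15.8%) and a median of 3.22 points. The order of the lists was another one at 20 points, which 5.42% of all 5093 genes reached. There the epithelial-regulated exons had 2 of 24 (8.33%) and the actin cytoskeleton 4 of 38 (10.5%). Splicing regulators had 2 of 64 (3.12%), membrane traffic 1 of 33 (3.03%), and junctions and adhesion 2 of 19 (10.5%). None of the last 4 lists held any of the 64, and *arpc5b* and *actn3b* are not on the list of actin genes, nor *vps25*, *RAB21* and *herpud1* on that of membrane traffic. The following genes were chosen after their values were seen. *tpm4b*, a tropomyosin of actin filaments, had a transcript of 1698 bases at 50.7, 48.9 and 42.9% in GFP-positive libraries, against 18.8, 19.4 and 20.1% in GFP-negative libraries. *srsf3b*, an SR splicing factor, had one of 985 bases at 24.7, 26.7 and 27.6% in GFP-positive libraries, against 2.16, 2.8 and 2.67% in GFP-negative libraries. E-cadherin, *cdh1*, had a transcript of 3291 bases at 72.2% ± 9.91 in GFP-positive cells, against 46.6% ± 7.98 in GFP-negative cells (SD, n = 3 each).

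Of the 64 genes, 11 carried clone names in the files, and for 3 of them the gene name table gives symbols that are not clone names: *hhex* for CABZ01079847.1, *ATE1* for CABZ01078449.1 and *fbxo44.9* for si:dkey-147f3.4. For CU302436.4 it gives another clone name, zgc:114046. The largest difference among the 11 was that of si:dkey-253d23.3 (ENSDARG00000095643). Its transcript of 881 bases held 16.9, 0 and 8.39% in GFP-positive libraries, against 68.8, 75.2 and 69.5% in GFP-negative libraries. The difference was -62.8 points in shares of TPM, against -42.8 points in shares of estimated counts. BX957251.1 (ENSDARG00000090160), the other of the 2 genes just inside the limit, had a transcript of 1784 bases at 7.26, 5.58 and 0% in GFP-positive libraries, against 40.6, 32.0 and 31.0% in GFP-negative libraries, beside one of 1786 bases. It no longer met the rule with transcripts within 5 bases merged, or in shares of estimated counts (-29.9 points). Nor did it at a gene TPM of at least 20, or without GFP-positive replicate 3 or GFP-negative replicate 1. si:dkeyp-79b7.3 had a transcript of 230 bases at 0.379, 61.7 and 69.0% in GFP-positive libraries, against 79.8, 92.4 and 81.0% in GFP-negative libraries, so that 1 GFP-positive library stood far from the other two. CABZ01079847.1, the homeobox gene *hhex* in the table, had the smallest gap of the 64, of 0.559 points, between its nearest libraries. The pair of transcripts there was of equal length, 534 bases. Both had the same TPM in GFP-positive replicate 2 (30.6) and in every GFP-negative library (15.2, 15.7 and 18.6), so the division of reads between them is uncertain. With transcripts within 5 bases merged, or without GFP-positive replicate 1 or replicate 3, the gene no longer met the rule.

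The 41 genes that the rule for naming did not take had differences of 30.4 to 52.5 points in size, and some of them are described above. *igbp1*, which binds the catalytic subunit of PP2A, had a tight transcript of 2385 bases at 96.9, 96.9 and 96.0% in GFP-positive libraries, against 57.5, 55.0 and 57.1% in GFP-negative libraries. *spag7* had its transcript of 1850 bases at 27.0, 28.0 and 28.2% in GFP-positive libraries, against 65.5, 66.6 and 65.5% in GFP-negative libraries, beside a transcript of 7663 bases. In shares of estimated counts it took 7.24% in GFP-positive cells, against 28.3% in GFP-negative cells, and the difference of -21.1 points does not meet the rule. The lead transcript of *chl1a*, a cell adhesion molecule of neurons, varied more, with 71.0, 48.5 and 56.7% in GFP-positive libraries, against 15.9, 1.29 and 43.3% in GFP-negative libraries. *ptprk*, a receptor phosphatase at cell contacts, had 3.93, 21.9 and 34.2% in GFP-positive libraries, against 48.6, 54.5 and 54.4% in GFP-negative libraries, for its transcript of 3595 bases.

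The lengths of the transcripts, which the rule did not use directly, are given as a description, with no test, beside all genes considered. The length gap between the transcript with the larger and the one with the smaller share in GFP-positive cells had a median of 197 bases in the 64 genes and 723 bases over the 5093. It was at most 50 bases in 18 genes (28.1%), against 656 (12.9%) of the 5093, and at most 5 bases in 8 genes (12.5%), against 264 (5.18%). The transcript with the larger share in GFP-positive cells was the longer one in 37 genes (57.8%), against 2855 (56.1%) of the 5093, and the shorter one in 25. When transcripts within 5 bases were merged, 55 of the 64 still met the rule. That setting joins the opposite differences of the 8 genes with a gap of at most 5 bases, so their loss follows largely from the merging itself. In all 9 genes were lost, and the other one was *capn8*, whose pair had a gap of 80 bases.

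In shares of estimated counts the lead transcript differed by at least 30 points in 41 of the 64 genes and by less in 23. Among the 23 were *actn3b*, *creb1b*, *he1b*, *nup58*, *rrm2b*, *spag7*, *trmt10a* and BX957251.1. The difference was under 10 points in 3 genes, *scrib*, *chl1a* and *slc35c2*, with count share differences of 1.65, 2.61 and 7.07 points. One of the pair was shorter than 500 bases in 6 genes (9.38%, against 9.7% of the 5093): *actn3b*, *scrib*, si:dkeyp-79b7.3, *chl1a*, *ctage5* and si:ch73-238c9.1. With transcripts under 500 bases left out, an alternative chosen after seeing the data, none of these 6 met the rule. That setting removes a transcript of the pair in each of them, so the outcome was largely set beforehand.

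**Figure D5:**
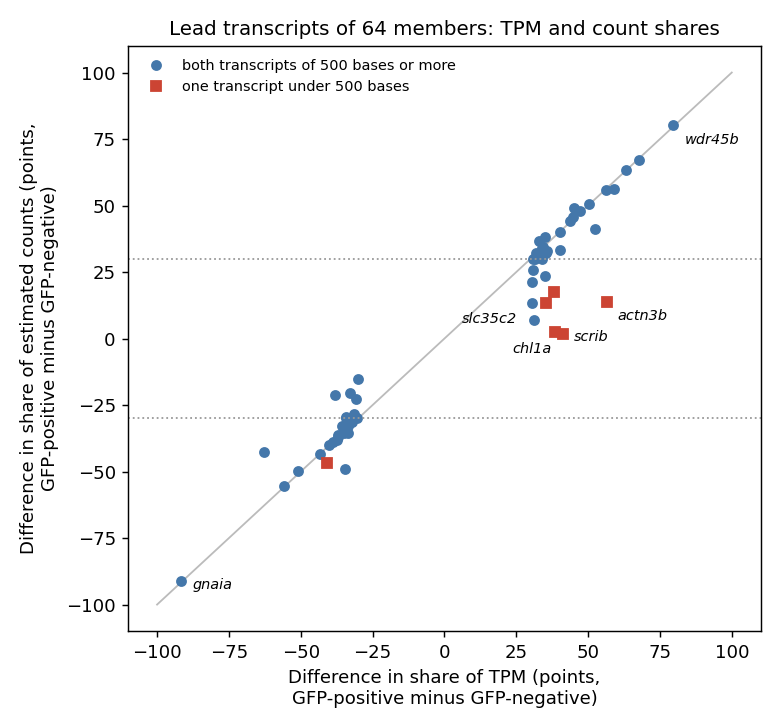
Difference in the share of estimated counts (y axis, points) against the difference in the share of TPM (x axis, points), GFP-positive minus GFP-negative, for the lead transcripts of the 64 genes; the line marks equal values and the dotted lines 30 points. Most genes lie near the line, whereas *scrib*, *chl1a*, *actn3b* and *slc35c2* have far smaller differences in counts than in TPM.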

How the data were processed

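RNA was measured in 3 GFP-positive and 3 GFP-negative libraries, grouped by the sample titles. The authors trimmed reads with Trimmomatic (0.35 in the submitters' processing notes) and quantified them with kallisto 0.41 against zebrafish zv10 cDNA. They deposited TPM for 51286 transcripts in 1 table of the series, and estimated counts, TPM and transcript lengths for each library; the TPM of both agreed to within 5e-08. TPM is scaled by transcript length and library total, and the deposited estimated counts are not normalized. Columns of the authors' own sleuth comparison (effects, p-values and q-values) were not used. Genes were the Ensembl identifiers of the files, 63 of 64 of which were in the gene name table.

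Shares were computed with pandas 2.3.3. Differential usage was fitted to estimated counts rounded to whole numbers with edgeR 4.0.16 in R 4.3.3 (TMM, filterByExpr, diffSpliceDGE with Simes p-values and Benjamini-Hochberg adjustment over 4316 genes). Tested on simulated data, edgeR and DESeq2 1.42.0 called more unchanged genes than the threshold allows, whereas limma 3.58.1 on log2 ratios, with 0.5 added to the counts, called about as many as it is set to. The simulated counts were drawn independently for each transcript, without the division of reads between transcripts. These rates need therefore not hold for the data. Totals of 40584467 to 49679602 estimated counts set the precision; SDs are over libraries.

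The genes named were the 12 with the largest differences and a gene symbol, the 8 most abundant, those on the lists, and the 2 nearest to the limit on each side. Further genes were named after their values were seen. The 64 genes and the 5 lists (epithelial-regulated exons, splicing regulators, actin cytoskeleton, junctions and adhesion, membrane traffic) were chosen with earlier results of these data known. Alternatives were estimated counts in place of TPM, other TPM and share limits, overlap allowed, summed TPM, short transcripts left out, libraries left out in turn, other normalization and filter, a replicate block, and DESeq2. Transcripts within 5 bases merged, those under 500 bases left out, and limma were added after seeing the data.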

Additional observations from a re-analysis of the deposited data

How the results depend on the processing

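The count of 64 genes became 109 at a gene TPM of at least 5, 38 at 20, 276 at a share difference of at least 20 points and 21 at 40 points, and the count of genes whose most abundant transcript differed (36) became 59, 21, 103 and 18 under the same settings. Leaving out single libraries gave 60 to 103 genes for the rule, 35 to 48 for the most abundant transcript, 339 to 836 for edgeR's calls of differential usage (513 with all libraries) and 45.8 to 50.8 points for the median difference of the named genes (47.1 with all). The highest counts, 103 and 836, came without GFP-positive replicate 3, and the lowest count of calls, 339, without GFP-negative replicate 3. DESeq2 called 1501 genes. The other settings changed these counts by less than 1.5 times, with 52 genes from estimated counts, 68 with overlap allowed, 62 without transcripts under 300 bases and, chosen after seeing the data, 63 without those under 500 bases. The genes were not all the same: 41 of the 64 were among the 52, and 58 of the 64 among the 63. All 64 were among the 68, and the 62 all belonged to the 64. Of 252 values of single named genes under the alternatives, 30 moved by more than the spread between libraries. Their signs are no sign of stability, since the rule fixes them when libraries are left out or paired by number.

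With the replicate number as a replicate block, edgeR called 490 genes. Both populations came from each of 3 crosses, but the labels do not say that the number marks the cross. In log2 TPM, deviations from the group means had correlations of 0.08, -0.06 and -0.03 between same-numbered libraries, against -0.12 to 0.15 between the other pairs. In shares the correlations were 0.11, -0.05 and 0.09 between same-numbered libraries, against -0.15 to 0.07 between the other pairs. The cause of none of these changes was tested. Depth limits the genes with few counts: in single libraries the summed estimated counts of the 64 genes ranged from 40.8 to 33405. The lowest was that of si:dkeyp-79b7.3, whose lead transcript is 230 bases long.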
